A study of Vitis vinifera with 36 samples.

Results

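The heat shock, chaperone and seed storage genes of grapevine ovules and developing seeds were followed with 58 probes of the 26688 on the array. They were taken from the study's tables of differentially expressed genes wherever the annotation named a heat shock protein, DnaJ, a chaperone, a late embryogenesis or LEA word, dehydrin, seed storage, legumin, globulin, vicilin or albumin. The tables in hand annotate 4118 probes. A word starting with LEA also caught 9 probes for leaf, leaves or leafy, so the counts below cover the other 49, and the 9 are given at the end. Sorted by the words of the annotation alone, the 49 held 9 small heat shock proteins, 7 HSP70, 8 HSP90, 2 HSP100 and 9 DnaJ or J proteins. A further 5 were other chaperone-related genes that matched no such word, among them the heat shock protein MTSHP, whose family was not settled here. Of the rest, 1 was heat shock transcription factor A6B, 1 an 11S globulin and 7 belonged to the protease inhibitor/seed storage/lipid transfer (LTP) family. No member was annotated as late embryogenesis abundant protein, dehydrin, vicilin, albumin or legumin. The tables in hand are in part truncated, so such genes may stand in rows not used here. The seed storage words rested on the globulin and the LTP family.

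Heat shock proteins are molecular chaperones, which bind other proteins while they fold and keep damaged proteins from clumping. Small heat shock proteins hold unfolded clients, HSP70 refolds them together with J proteins and the nucleotide exchange factor GrpE, HSP90 matures kinases and receptors, and HSP100 pulls proteins out of aggregates. Heat shock transcription factors switch these genes on under heat, and in seeds of many plants some of them are also made during maturation without any heat. 11S globulins are storage proteins that an embryo lays down as it matures, and LTP family proteins carry lipids at cell surfaces or serve as small storage proteins.

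Ovules and developing seeds came from Red Globe (RG) and Italia (IT), which are seeded, and from Thompson Seedless (TS), whose seeds abort after fertilisation (stenospermocarpy). The vines stood in one field collection under usual management with no hormone treatment, and the groups differ by variety and stage alone as far as the labels say. The stages were S1 (pre-bloom), S2 (post-bloom), S3 (pea size) and S4 (veraison, when the berry starts to ripen), with 3 arrays per variety and stage described as biological triplicates, so 36 arrays in 12 groups. A second seedless variety, Autumn Royal, is not analysed here, and seedlessness therefore rests on TS by itself. Values are log2 scaled signals, in which 0 is the 75th percentile of an array. A called probe had an adjusted p under 0.05 and a difference above 1 on the log2 scale in limma, over the 23068 probes tested. P-values rest on the spread of arrays within groups, pooled for each probe over all 12 groups. They do not measure the spread of the 3 arrays of 1 group alone. In such bulk samples, fewer cells of a type and less RNA per cell cannot be told apart.

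Some arrays stood apart before any comparison. The array of replicate 3 of IT at S1 was the dimmest, with 38.7% of probes well above background against up to 90.1% on the others. IT lay on 5 slides of its own, and RG and TS shared the other 7, so IT against TS cannot be told apart from slide. Replicate 3 of IT at S4 differed from its 2 partners in the globulin by about 10 log2 units. Slides 7 and 8, scanned in one session, carry 8 of the RG and TS arrays. On them 9.30% of all probes and 4 of the 49 members were higher by more than 1 in all 6 of the RG and TS groups that they touch. The probe of VviAGL11, which marks ovule identity, was well above background on each of the 36 arrays. Inner no outer, a gene of the outer ovule integument, was not at S4 in RG (0 of 3 arrays), TS (0 of 3) or IT (1 of 3).

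The members were chosen on measurements of these same arrays. Of the 49, 26 came from the RG against TS list at S3, 11 from a list of seeded against seedless varieties at S1, 19 from such a list at S2, and 7 stood on more than 1 list. The S3 list in hand is truncated, and all 26 members from it were higher in RG, by 1.05 to 3.05 log2 units here, which is no finding. Values on the arrays that chose a member are therefore given as description, with no test, and each count below covers the members that were not chosen on those arrays. All 49 passed the filter on dim probes, 26 were well above background on every array and none was saturated. In at least 1 such comparison 36 were called, and 13 in none. Members were open to unequal numbers of comparisons, and the share of all probes called in at least 1 is not given here. The count therefore does not set the members apart.

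**Figure D1:**
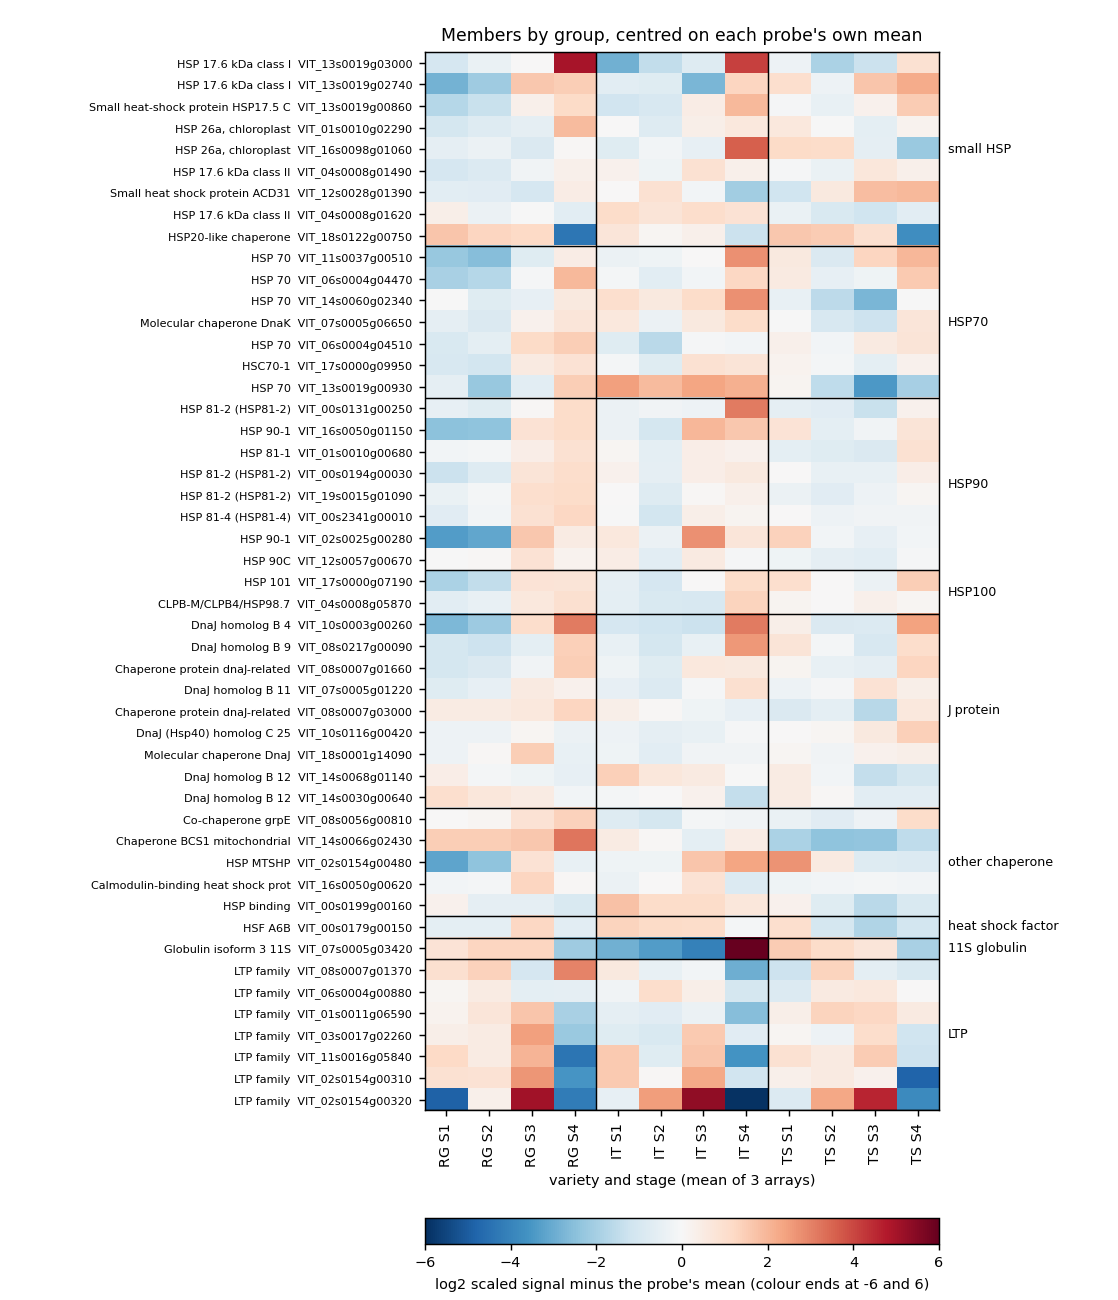
Group means of the 49 members (rows, by class) in 12 groups (columns), as log2 scaled signal minus the mean of each probe. Red marks high and blue low; the LTP family is blue at S4 in most rows, whereas several small heat shock, HSP70 and J protein rows are red there.

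Within each variety, more members had their highest group mean at S4 than at any other stage. In RG the highest group mean fell at S4 for 27 of 49 members and at S3 for 16, in IT for 21 and 17, and in TS for 24 and 8. The highest mean fell at S1 for 14 members in TS, against 5 in RG and 9 in IT. These counts include the arrays that chose the members, 26 of which came from the RG against TS list at S3, and carry no test. The share of all probes that peak at each stage is not given here, so the counts do not set the members apart.

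Of the steps between stages, the one from pea size to veraison held the most calls in each variety, with unequal numbers of members open to test. In IT, where no array had been used in choosing for this step, 12 of 49 members rose and 11 fell (24.5% and 22.4%), against 10.4% of all probes tested that rose and 14.3% that fell. In RG, 8 of 23 rose and 4 fell, against 15.3% and 16.1% of all probes. In TS, 4 of 23 rose and 4 fell, against 10.5% and 14.2%. The median of all probes shifted by 0.10 in IT, 0.24 in RG and 0.18 in TS over this step. The summed level of 22 green tissue markers (chlorophyll-binding and photosystem genes, on a linear scale with the 75th percentile as 1) went down over the same step, from 216 to 395 down to 44.0 to 56.8 in IT, from 247 to 317 down to 100 to 120 in RG and from 253 to 304 down to 152 to 189 in TS. These markers came from the same tables as the members, most of whose rows list genes that differed between varieties on these arrays. Their levels are therefore a description, and their part in the members' changes was not tested.

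**Figure D2:**
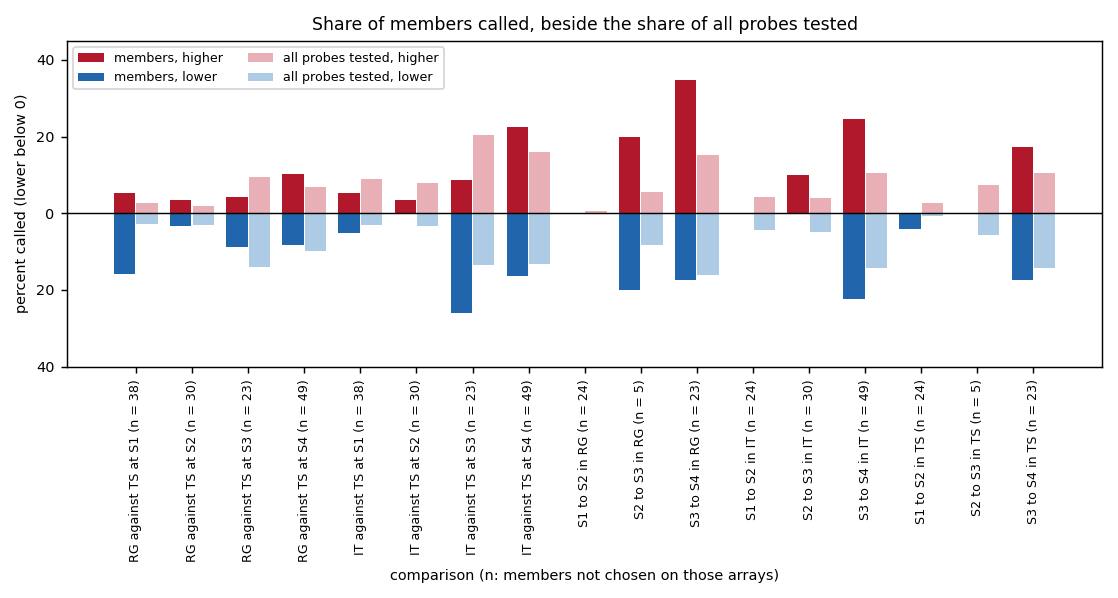
Percent of members called (dark bars) beside the percent of all probes tested (pale bars), higher above 0 and lower below it, with the number of members not chosen on the arrays of each comparison. The bars of members that rose from S3 to S4 reach 34.8% in RG, 24.5% in IT and 17.4% in TS.

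Among the small heat shock proteins, the class I protein encoded by VIT_13s0019g03000, a cytosolic holdase, had the steepest rise. The RG arrays at S4 read 6.17, 6.16 and 6.21, those of IT 5.43, 5.14 and 5.42, and those of TS 2.40, 2.20 and 1.86. At S3 the RG arrays had read 1.38, 1.16 and 1.21, those of IT 0.48, -0.57 and 1.40, and those of TS 0.66, -0.48 and -0.32. The 3 varieties did not overlap at S4, and both seeded varieties lay above TS on every array. It was 4.02 ± 0.53 log2 units higher in RG than TS at S4 (SE; adjusted p = 2.52e-06), which is a 16.3-fold difference, and 3.17 ± 0.53 higher in IT than TS (adjusted p = 4.23e-05). On slides 7, 10 and 12, which hold an RG and a TS array each, the RG minus TS difference was 4.35, 3.77 and 3.95. In IT it rose from S3 to S4 by 4.90 ± 0.53 (adjusted p = 5.98e-08). At S1 the order was another, with IT 2.59 below TS (adjusted p = 0.00187; the arrays overlapped), a difference that was no longer called without the arrays of slides 7 and 8 (0.95 below, adjusted p = 0.208, with 1 TS array left at S1, whose spread is taken from the other groups).

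The chloroplast small heat shock protein HSP26a of VIT_16s0098g01060 separated the varieties at veraison. It stood at 0.66, 0.57 and 0.07 in IT, at -2.71, -2.42 and -4.08 in RG and at -5.94, -5.44 and -4.73 in TS, where 1 of 3 arrays was well above background. Each variety's arrays at S4 lay apart from those of the others. IT was 5.80 ± 0.48 above TS (adjusted p = 1e-09), and RG was 2.30 ± 0.48 above TS (adjusted p = 0.000818), a difference that fell to 0.54 with normexp background correction (adjusted p = 0.6). Within slides 10 and 12 RG exceeded TS by 3.23 and 3.02, and within slide 7 by 0.66. From S3 to S4 it rose by 4.07 ± 0.48 in IT (adjusted p = 2.18e-07). In TS it fell by 1.65 ± 0.48 (adjusted p = 0.00991), a change of 0.06 upwards with normexp (adjusted p = 0.92). The step differed between RG and TS by 2.59 ± 0.68 (adjusted p = 0.00603), and by 0.88 with normexp (adjusted p = 0.408). The other HSP26a probe, VIT_01s0010g02290, rose in RG by 2.45 (adjusted p = 0.00469) from S3 levels of -0.75, -0.79 and -0.59 to 2.31, 2.46 and 0.45.

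Other small heat shock proteins moved differently. The HSP20-like chaperone VIT_18s0122g00750 fell at S4 in all 3 varieties, with changes of -5.52 ± 0.52 for RG (adjusted p = 1.97e-09), -4.66 for TS (adjusted p = 1.36e-07) and -1.60 for IT (adjusted p = 0.0195). In RG it went from -0.92, -0.97 and -0.96 at S3 to -7.77, -5.96 and -5.69 at S4, where no array was well above background, so it was at least 31.1-fold lower. ACD31, named for its alpha-crystallin domain (the core that small heat shock proteins share), was lower in RG than TS at S3 by 2.87 ± 0.46 (adjusted p = 2.28e-05), with 1.43, 1.55 and 1.43 in RG and 3.93, 4.63 and 4.46 in TS. At S4 it stood at -0.18, -0.12 and 1.42 in IT, which was 4.03 ± 0.46 below TS (adjusted p = 1.45e-07). From S3 to S4 it rose by 1.47 in RG (adjusted p = 0.0119), but by 0.93 without slides 7 and 8 (adjusted p = 0.102), and fell by 1.94 in IT (adjusted p = 0.00165). ACD31 had its highest mean in the seedless variety at both late stages, whereas the class I protein had its lowest there at S4. A second class I probe, VIT_13s0019g02740, had an IT minus TS difference of -4.43 ± 1.24 at S3 (adjusted p = 0.00779) and rose by 4.05 in IT from S3 to S4 (adjusted p = 0.0141). The cytosolic class I probe VIT_13s0019g00860 rose by 1.5 in IT (adjusted p = 0.0449) with overlapping arrays. Neither of the 2 class II probes was called in any comparison open to test.

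**Figure D3:**
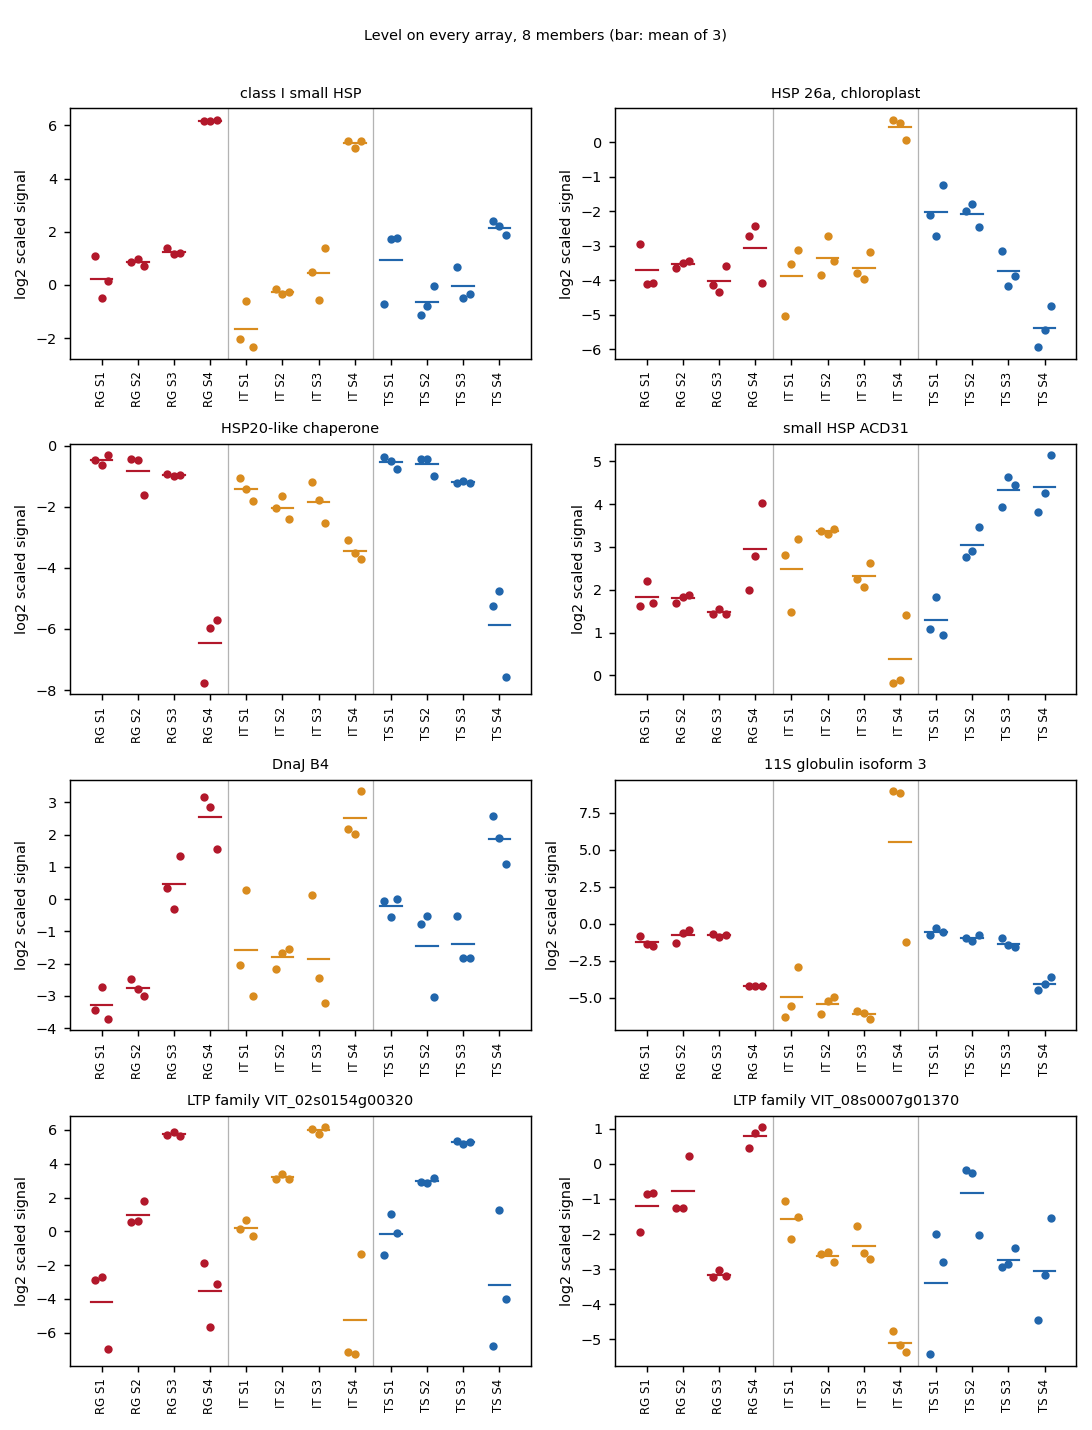
Log2 scaled signal on every array (points) with the mean of 3 (bars) for 8 members, RG in red, IT in orange and TS in blue. The class I small heat shock protein reaches 6.17, 6.16 and 6.21 in RG at S4, and 2 of the 3 IT arrays of the 11S globulin lie near 9.

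From S3 to S4, 2 of 7 HSP70 probes rose in IT, 1 of 3 open to test in RG and 1 of 3 in TS, and none fell, against 10.4%, 15.3% and 10.5% of all probes that rose. VIT_06s0004g04470 rose from S3 to S4 in each variety, by 2.03 ± 0.48 in RG (adjusted p = 0.0014), 1.82 in TS (adjusted p = 0.00503) and 1.42 in IT (adjusted p = 0.0272), and the RG arrays went from 1.00, 0.81 and 2.22 to 3.48, 3.62 and 3.01. VIT_11s0037g00510 rose in IT by 2.70 ± 0.95 (adjusted p = 0.0332), from -3.54, -3.0 and -2.33 to 0.55, 0.88 and -2.22, and replicate 3 barely left the S3 range. VIT_14s0060g02340 was higher in IT than TS at S4 by 2.80 ± 0.85 (adjusted p = 0.0123), with 3.02, 2.96 and 2.46 against -1.16, -0.86 and 2.06. The other 4 HSP70 probes, among them the cognate HSC70-1 that cells make without stress, were called in no comparison open to test.

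Of the 7 HSP70 probes, 2 differed by slide. VIT_13s0019g00930 lay between -0.85 and -0.29 on the 8 RG and TS arrays of slides 7 and 8, and between -8.45 and -1.53 on the 16 RG and TS arrays of other slides, 9 of which were not well above background. On the 12 IT arrays it lay between -1.5 and 0.75. VIT_14s0060g02340 lay between 0.29 and 2.06 on slides 7 and 8 and between -2.94 and 0.38 on the other RG and TS slides. The class II small heat shock protein VIT_04s0008g01620 (4.64 to 5.48 against 2.20 to 4.44) and the heat shock protein binding probe VIT_00s0199g00160 (-0.05 to 0.76 against -2.59 to -0.93) had the same split. For VIT_14s0060g02340 the IT against TS difference at S4 was 3.82 without those slides.

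**Figure D4:**
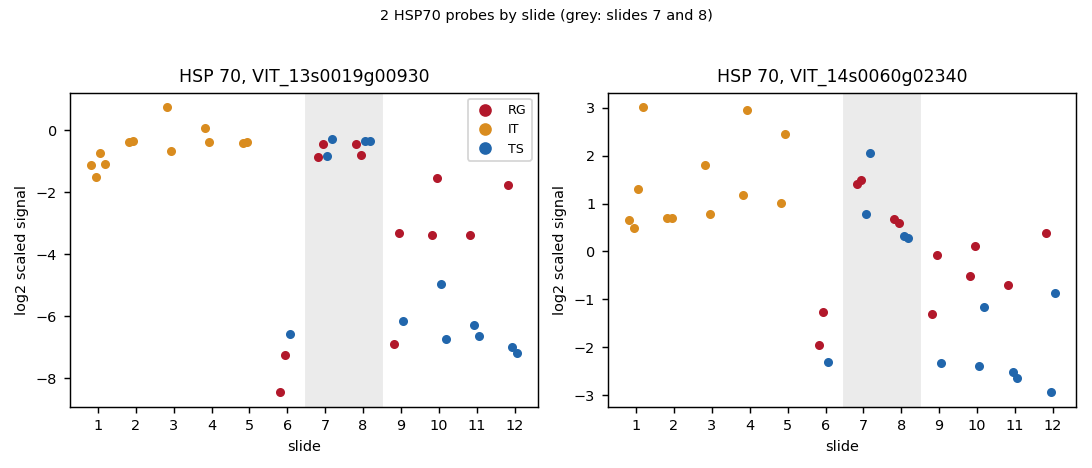
Log2 scaled signal of 2 HSP70 probes on each array by slide (1 to 12), RG in red, IT in orange and TS in blue, with slides 7 and 8 shaded. On slides 7 and 8 VIT_13s0019g00930 lies between -0.85 and -0.29 in RG and TS, within the IT range and above every other RG and TS array.

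Of the 8 HSP90 probes, 3 were lower in RG than TS at S1 and none was higher, on arrays that played no part in their choice. The other 5 were not called, and among them HSP90C, HSP81-1 and HSP81-2 of VIT_00s0131g00250 had RG means of 0.22, 0.23 and -2.87 against -0.01, -0.20 and -2.95 in TS. All 8 had been chosen for being higher in RG at S3, by 1.12 to 2.10 log2 units here, so the direction at S3 is no finding. Over all chaperone and storage members at S1, 2 of 38 were higher in RG and 6 lower (15.8%), against 2.74% and 2.87% of all probes. The stress-inducible type HSP90-1 of VIT_02s0025g00280 stood at -6.57, -4.76 and -6.27 in RG and at -4.14, 0.89 and -0.11 in TS. The RG arrays all lay below those of TS, by 4.74 ± 1.14 on the log2 scale (adjusted p = 0.0103), and 2 of 3 RG arrays were well above background. With normexp the difference of RG from TS was -2.24 in place of that (adjusted p = 0.106). The RG minus TS difference was -2.42, -5.65 and -6.16 within slides 6, 7 and 8. The second HSP90-1 probe, VIT_16s0050g01150, was lower in RG by 3.26 ± 0.84 (adjusted p = 0.0162), with -2.81, -1.69 and -2.22 in RG and -1.38, 2.93 and 1.51 in TS. HSP81-2 of VIT_00s0194g00030, a cytosolic HSP90, was lower by 1.29 ± 0.29 (adjusted p = 0.00645).

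Beside HSP90, MTSHP (VIT_02s0154g00480) had the widest gap at S1, with -4.84, -3.07 and -5.38 in RG and 0.48, 1.84 and 2.02 in TS. It was 5.87 ± 0.75 lower in RG at S1 (adjusted p = 8.54e-06), 2.94 lower at S2 (adjusted p = 0.0176), and the difference lay between -7.39 and -4.91 within the 3 slides at S1. IT was also below TS at S1, by 2.95 (adjusted p = 0.00996), but above TS at S4 by 3.19 (adjusted p = 0.0017). DnaJ B4 (VIT_10s0003g00260) had a difference of -3.09 at S1 (adjusted p = 0.0128), and of -2.12 with normexp (adjusted p = 0.0589), with -3.43, -2.74 and -3.71 against -0.05, -0.56 and -0.01. A dnaJ-related chaperone, VIT_08s0007g01660, was lower by 1.22 (adjusted p = 0.0142), and another, VIT_08s0007g03000, was higher by 1.35 (adjusted p = 0.0066). The sums of the green tissue markers at S1 were 26.8 to 41.6 in RG and 79.2 to 130 in TS. These markers came mostly from lists of genes that differed between varieties, so the gap is a description, and their part was not tested. Without the arrays of slides 7 and 8, which leaves 1 array a variety at S1, the count at S1 was 2 in place of 8, and it was 5 without replicate 1 of RG or without replicate 3 of TS.

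**Figure D5:**
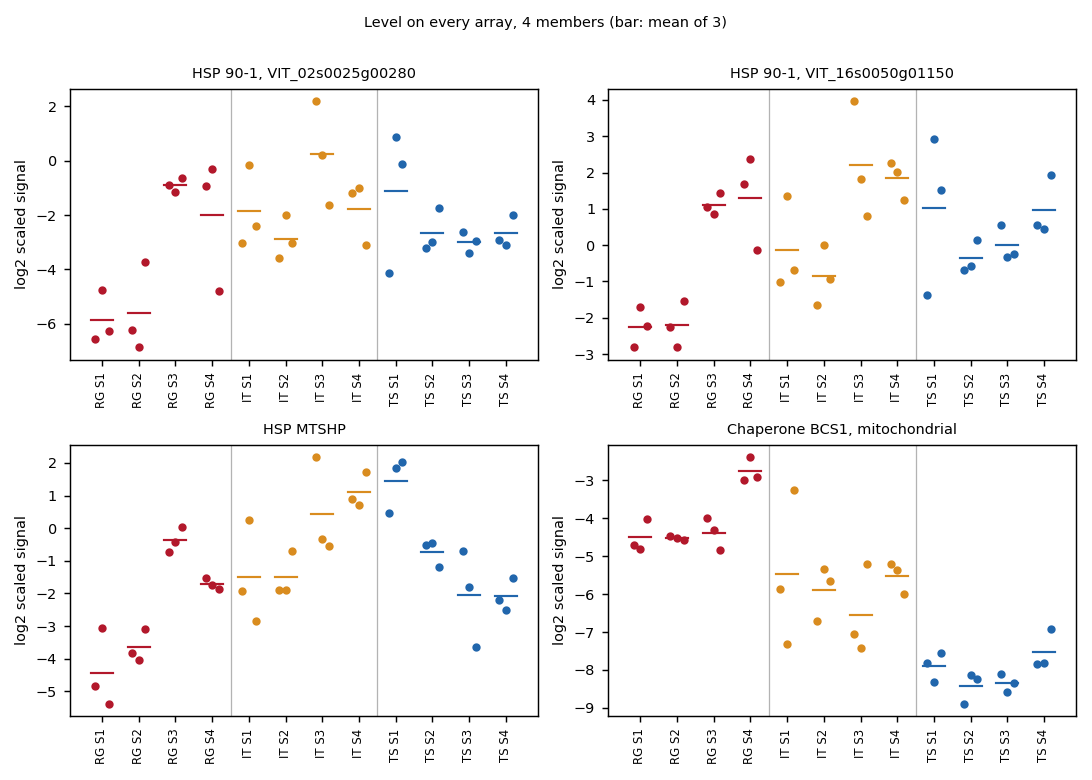
Log2 scaled signal on every array (points) with the mean of 3 (bars) for both HSP90-1 probes, MTSHP and BCS1, RG in red, IT in orange and TS in blue. At S1 MTSHP lies between -5.38 and -3.07 in RG and between 0.48 and 2.02 in TS.

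In IT, 2 of the 8 HSP90 probes rose from S2 to S3 and 1 from S3 to S4, with none lower, against 3.91% and 10.4% of all probes that rose. HSP90-1 of VIT_16s0050g01150 rose by 3.05 ± 0.84 from S2 to S3 (adjusted p = 0.0184), to 3.97, 1.83 and 0.80, and HSP81-4 rose by 1.43 (adjusted p = 0.0445). HSP81-2 of VIT_00s0131g00250 rose by 3.39 ± 0.66 from S3 to S4 in IT (adjusted p = 0.000234), from -2.41, -2.62 and -3.03 to 0.12, 0.45 and 1.54. At S4 this probe was 2.83 higher in IT than TS (adjusted p = 0.0016). HSP81-4 (VIT_00s2341g00010) was higher in RG than TS at S4 by 1.45 (adjusted p = 0.025), and by 0.91 without slides 7 and 8 (adjusted p = 0.0501). Of the 8 HSP90 probes 3, namely HSP90C of the chloroplast, HSP81-1 and HSP81-2 of VIT_19s0015g01090, were called in no comparison open to test.

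Of the HSP100 family, which dissolves aggregates, the mitochondrial CLPB4 (VIT_04s0008g05870) rose in IT from -1.45, -2.03 and -2.52 at S3 to 0.77, 0.52 and -0.40 at S4, by 2.30 ± 0.38 (adjusted p = 2.84e-05). It was 1.24 lower in IT than TS at S3 (adjusted p = 0.0125) and 1.23 higher at S4 (adjusted p = 0.0134), where the arrays overlapped. The cytosolic disaggregase of this family, VIT_17s0000g07190, was called in no comparison open to test. Its S4 levels were 2.48, 2.55 and 2.03 for TS, 2.31, 2.21 and 1.29 for IT and 2.07, 2.90 and -0.05 for RG.

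J proteins hand clients to HSP70. From S3 to S4, 3 of 5 open to test rose in RG and 3 of 5 in TS with none lower, and in IT 3 of 9 rose and 1 fell, against 15.3%, 10.5% and 10.4% of all probes that rose. DnaJ B4 and B9 rose in all 3 varieties. DnaJ B4 rose by 4.37 ± 0.77 in IT (adjusted p = 6.78e-05), 3.25 in TS (adjusted p = 0.00187) and 2.06 in RG (adjusted p = 0.0357), to 2.18, 2.03 and 3.35 in IT, 2.57, 1.90 and 1.1 in TS and 3.17, 2.87 and 1.56 in RG. DnaJ B9 (VIT_08s0217g00090) rose by 3.03 ± 0.46 in IT (adjusted p = 1.04e-05), 1.99 in TS (adjusted p = 0.00162) and 1.98 in RG (adjusted p = 0.00113). The dnaJ-related VIT_08s0007g01660 rose by 1.82 ± 0.31 in TS (adjusted p = 4.95e-05), from -0.10, 0.62 and 0.52 to 2.50, 2.14 and 1.86, and by 1.66 in RG (adjusted p = 8.86e-05), while its IT means were 1.5 at S3 and 1.46 at S4. For these 3 probes no difference of the step between RG and TS was called. DnaJ C25 (VIT_10s0116g00420) differed from them, since its step was 1.32 lower in RG than TS (adjusted p = 0.0401, a call lost in 12 of 22 alternatives), and at S4 it lay below TS in both seeded varieties, by 1.81 for RG (adjusted p = 0.000158) and 1.5 for IT (adjusted p = 0.000822). One of the 2 DnaJ B12 probes, VIT_14s0030g00640, fell in IT by 1.65 (adjusted p = 0.000544). The other B12 probe and the probe annotated as molecular chaperone DnaJ were called in no comparison open to test.

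BCS1 (VIT_14s0066g02430) was well above background on all 12 RG arrays and on 3 others, all of IT. It is in yeast a mitochondrial ATPase needed to assemble respiratory complex III. It stood between -4.84 and -2.39 on all 12 RG arrays and between -8.89 and -6.93 on all 12 TS arrays, none of which was well above background. The probe passed the filter on dim probes through RG alone, so its difference from TS is a description with no test, although it stands among the members counted as higher than TS in RG and in IT at S1, S3 and S4. RG was at least 4.82-fold higher at S1, at least 5.02-fold at S3 and at least 10.4-fold at S4, and the arrays of S2 had chosen the probe. With normexp correction these differences were 0.82, 0.35 and 0.84 log2 units. GrpE was lower in IT than TS at S4 by 1.31 (adjusted p = 4.55e-05), and the calmodulin-binding heat shock protein (VIT_16s0050g00620) fell in IT from S3 to S4 by 1.70 ± 0.33 (adjusted p = 0.000221).

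Heat shock transcription factor A6B (VIT_00s0179g00150), which in Arabidopsis answers heat and abscisic acid, was higher in IT than TS at S2. The values were -1.73, -1.75 and -1.54 in IT and -4.11, -4.21 and -3.31 in TS, a difference of 2.21 ± 0.55 (adjusted p = 0.0111). It was the 1 member of 30 called higher in IT at S2, and none was lower, against 7.85% and 3.40% of all probes. In TS it fell from S1 to S2 by 2.04 (adjusted p = 0.034), and by 1.08 without slides 7 and 8 (adjusted p = 0.571), which leaves 1 TS array at S1 with a spread taken from the other groups. In RG it stood at -3.44, -3.23 and -3.59 at S1 and at -1.67, -1.99 and -1.10 at S3, the stage whose arrays chose it.

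The 11S globulin (VIT_07s0005g03420) had the widest range of all members. In IT it read 8.97, 8.82 and -1.21 at S4, after -5.87, -6.04 and -6.42 at S3. In RG it read -4.20, -4.23 and -4.20 at S4 after -0.69, -0.92 and -0.73, and in TS -4.46, -4.08 and -3.57 after -0.96, -1.45 and -1.59. Every IT array at S4 lay above every RG and TS array of that stage, but replicate 3 lay far nearer to them than to its partners. The rise in IT was 11.64 ± 1.39 (adjusted p = 2.86e-07), and it was 9.92 to 15.01 when 1 array of IT at S4 was left out, the highest value being without replicate 3. IT exceeded TS at S4 by 9.56 ± 1.39 (adjusted p = 6.63e-06). The step was -3.43 for RG and -2.71 for TS and not called (adjusted p = 0.055 and 0.153), although the S3 and S4 arrays did not overlap in either variety. The SE of 1.39 behind these p-values is pooled over all groups, with an SD of 5.84 in IT at S4 and 0.02 in RG at S4. At S3 IT was 4.78 lower than TS (adjusted p = 0.00978), with 2 of 3 IT arrays well above background. With normexp the IT minus TS difference was -2.25 (adjusted p = 0.204).

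Other storage globulins took another course in RG and TS. A wider list of chaperone and storage genes from further tables of the study could be paired with 4 probes, while 22 genes of that list could not be paired here. As the study chose them on these samples, their values are a description. The legumin (GSVIVT01022901001) stood at 5.30, 3.51 and 3.68 in RG at S4, 3.03, 2.20 and 0.34 in TS, and -0.50, -0.64 and 1.44 in IT, after -5.28, -7.97 and -7.74 in RG at S3. The globulin-like protein (GSVIVT01022907001) gave 5.59, 3.58 and 3.09 in RG at S4, 2.93, 1.87 and -0.09 in TS and -0.45, -0.55 and 1.58 in IT. In both, all 3 RG arrays at S4 lay above those of the other varieties, whereas the 11S globulin was highest in IT. Like the 11S globulin, both had higher means at S4 than at S3 in IT, at 0.10 after -3.72 for the legumin and 0.19 after -3.73 for the globulin-like protein. In RG and TS their means were also higher at S4 than at S3, where those of the 11S globulin were lower. A class I small heat shock protein of this wider list (GSVIVT01016396001) had its highest means at S3 and lower ones at S4, with 3.47, 3.52 and 3.77 and then 1.07, 1.26 and 0.54 in RG. The histone chaperone HIRA homolog stayed between -1.80 and 0.81 over all arrays.

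In IT all 7 LTP members were lower at S4 than at S3 by the test, against 14.3% of all probes, and 1 of them, VIT_01s0011g06590, turned to 0.38 upwards with normexp. In RG 3 of the 5 open to test fell and 1 rose, against 16.1% and 15.3%, and in TS 2 of 5 fell and none rose, against 14.2% and 10.5%. VIT_02s0154g00320 had its highest mean at S3 in every variety, with 5.37, 5.18 and 5.27 for TS, 5.72, 5.85 and 5.64 for RG and 6.08, 5.78 and 6.18 for IT. The step to S4 was -9.26 ± 1.42 for RG (adjusted p = 6.83e-06), -11.27 for IT (adjusted p = 6.41e-07) and -8.42 for TS (adjusted p = 4.75e-05). At S4, 2, 1 and 2 of the 3 arrays were well above background. The fall was called in each of the 3 varieties, and no difference of the step between RG and TS was called. For VIT_11s0016g05840 the step was -6.46 ± 0.47 in RG (adjusted p = 2.64e-11), -2.76 in TS (adjusted p = 5.38e-05) and -5.23 in IT (adjusted p = 2.34e-09), to -3.67, -3.46 and -1.53 in RG and -0.53, 0.78 and 0.60 in TS. Here the RG minus TS difference of the step was -3.70 (adjusted p = 0.000164).

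A single LTP rose in Red Globe. VIT_08s0007g01370 went from -3.24, -3.02 and -3.21 at S3 to 0.45, 0.88 and 1.06 at S4 in RG, a rise of 3.95 ± 0.66 (adjusted p = 2.39e-05). In TS it read -4.46, -3.17 and -1.55 at S4 and in IT -4.77, -5.17 and -5.38. The step was 4.28 higher in RG than TS (adjusted p = 0.0013), and RG exceeded TS at S4 by 3.86 (adjusted p = 9.34e-05) and by 2.60, 4.91 and 4.06 within slides 7, 10 and 12. VIT_01s0011g06590 fell further in RG than in TS, by 2.91 (adjusted p = 0.0128), but the difference was not called with normexp (0.93, adjusted p = 0.465) or without slides 7 and 8 (2.25, adjusted p = 0.0745). VIT_02s0154g00310 stayed higher in IT than TS at S4 by 3.67 (adjusted p = 0.00186), with 4.09, 3.90 and 4.46 against -2.10, 3.77 and -0.24.

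Between varieties the members moved both ways. At S4, 5 of 49 members were higher and 4 lower in RG than TS, against 6.93% and 9.96% of all probes, while 11 were higher and 8 lower in IT than TS, against 15.9% and 13.3%. At S3, 1 of 23 was higher (BCS1, which passed the filter through RG) and 2 lower in RG, against 9.49% and 14.1%, and 2 were higher and 6 lower in IT, against 20.5% and 13.4%. At S2, 1 of 30 was higher and 1 lower in RG, against 1.94% and 3.02%. In IT at S1, 2 of 38 were higher and 2 lower, against 9.00% and 3.11%. At S4 the green tissue markers, drawn mostly from lists of genes that differed between varieties, summed to 152 to 189 in TS, above both RG and IT. This is a description, and their part was not tested.

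Early steps held few calls. From S1 to S2, none of 24 members was called in RG or in IT, with 0 and 6 at an unadjusted p under 0.05 and 0 and 3 by the methods' t-test, against 0.629% of all probes that rose and 0.186% that fell in RG, and 4.25% and 4.26% in IT. In TS 1 of 24 fell and none rose, against 0.655% and 2.71% of all probes. From S2 to S3, 3 of 30 rose in IT and none fell, against 3.91% and 5.00%, and the third was an LTP, VIT_03s0017g02260, which rose by 2.52 (adjusted p = 0.000307). In RG, where 5 members were open to test, VIT_06s0004g04470 rose by 1.62 (adjusted p = 0.021) and VIT_08s0007g01370 fell by 2.39 (adjusted p = 0.0132), against 5.41% and 8.20%. In TS none of 5 was called, with 3 at an unadjusted p under 0.05 and 1 by the methods' t-test, against 7.40% that rose and 5.64% that fell. The step differed between RG and TS from S3 to S4 for 2 of 23 members upwards and 3 downwards, against 10.4% and 10.4% of all probes. From S1 to S2 it was called for none of 24 and from S2 to S3 for none of 5, with 4 and 2 at an unadjusted p under 0.05, against 0.00% higher and 0.0130% lower of all probes for the first step and 1.90% and 5.51% for the second.

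The 9 probes caught by leaf words are named for leaf form or senescence, and 1 has a seed role. The Leafy cotyledon1-like protein (VIT_00s0956g00020), whose relative in Arabidopsis directs embryo maturation, read 0.55, 0.55 and -5.53 in IT at S4, again with replicate 3 far from its partners. It was 2.98 ± 0.98 lower in RG than TS at S4 (adjusted p = 0.031), with 2 of 3 RG arrays well above background. With normexp the RG minus TS difference was -0.82 (adjusted p = 0.581). Leaf senescence protein-like (VIT_15s0046g01230) fell in RG from S3 to S4 by 5.21 ± 0.90 (adjusted p = 3.71e-05), and the RG minus TS difference of the step was -5.08 (adjusted p = 0.00437). Its RG arrays at S4 read -6.03, -2.60 and -7.86, and 1 of 3 was well above background. Over the alternatives the change in RG ranged from -6.65 to -2.10. Leaf senescence related (VIT_13s0067g01180) went in IT from no array well above background at S3 to -3.58, -3.25 and -3.65 at S4, which was at least 11-fold higher. IT at S4 was the 1 group with all 3 arrays well above background and brought the probe past the filter, so this is a description with no test.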

How the data were processed

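The authors deposited 1-colour Feature Extraction output for each of 36 arrays, in which the processed intensity of a spot has the background and a spatial trend removed array by array, with no scaling between arrays. The file headers name Feature Extraction 10.7.1.1, another version than the methods, and scans before the seasons the methods give. For 43803 spots that are not controls, unflagged spots of a probe were averaged, 124 of 26688 probes without an unflagged spot on every array were left out, and log2 of the mean minus each array's 75th percentile was used. Probes well above background on all 3 arrays of a group (23068) entered 1 limma (3.58.1, R 4.3.3) fit of 12 groups with 24 residual degrees of freedom and Benjamini-Hochberg adjustment. Where no array of the dimmer group was well above background, "at least" sets the brighter mean against the lowest signal well above background on the dimmer arrays. On simulated RG against TS data at S4, 33 of 100 probes changed by 1.5 and 86 of 100 changed by 3 log2 units were called, with 5 false calls in 22868. The simulated noise was independent between arrays and held no slide or scan effect, so these rates do not cover such effects in the data.

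The members and lists were chosen with earlier results of these data known, from supplementary tables that are in part truncated and were read for annotations alone. From each class up to 3 members with the largest called difference and no overlap on arrays the choice had not used were to be described in full, with the globulin, the heat shock factor and the Leafy cotyledon1-like probe always among them. Further members were described after their values were seen. Alternatives were scaling, background correction, the dim filter, blocks, the methods' t-test, leaving out arrays, and, chosen after seeing the data, leaving out slides 7 and 8 and a scan session block. Gene names are those of the annotations, neighbouring genes of a family could share probe signal, and no sequence was used. A deposited matrix of the same intensities and the authors' fold and p-value columns were not used.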

Additional observations from a re-analysis of the deposited data

Results flagged for a closer look

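For 6 members the step from pea size to veraison differed between Red Globe and Thompson Seedless by the test of the difference itself, on arrays the choice of members had not used. The LTP family probe VIT_11s0016g05840 fell further in RG, with a difference of -3.70 (adjusted p = 0.00016). The LTP family probe VIT_08s0007g01370 had a difference of 4.28 (adjusted p = 0.0013). Another LTP family probe, VIT_01s0011g06590, gave -2.91 (adjusted p = 0.013), but -0.93 with normexp (adjusted p = 0.465) and -2.25 without slides 7 and 8 (adjusted p = 0.0745). HSP26a of the chloroplast (VIT_16s0098g01060) gave 2.59 (adjusted p = 0.006), but 0.88 with normexp (adjusted p = 0.408). DnaJ C25 (VIT_10s0116g00420) gave -1.32 (adjusted p = 0.04), a call lost in 12 of 22 alternatives that ranged from -1.59 to -1.08. Leaf senescence protein-like (VIT_15s0046g01230) gave -5.08 (adjusted p = 0.0044), and -6.53 to -2.49 over the alternatives. Of its RG arrays at S4, 1 of 3 was well above background. Among all probes tested, 10.4% had such a difference upwards and 10.4% downwards. The shares of members without leaf words called for this step, given above, were near these. The list therefore does not set the members apart.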

How the results depend on the processing

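The counts of members called kept within 1.5 times the reported ones except as follows. Without scaling, the count was 0 for RG against TS at S2, IT against TS at S1, IT against TS at S2, S2 to S3 in RG and S1 to S2 in TS, 1 for S2 to S3 in IT, 2 for RG against TS at S1 and the RG minus TS step from S3 to S4, 3 for IT against TS at S3, 4 for S3 to S4 in TS, 5 for RG against TS at S4, 6 for S3 to S4 in RG, 12 for IT against TS at S4. With normexp background correction, the count was 0 for RG against TS at S2 and S1 to S2 in TS, 2 for IT against TS at S1, IT against TS at S2 and the RG minus TS step from S3 to S4, 4 for IT against TS at S3, 5 for RG against TS at S1. Over probes well above background on every array, the count was 0 for IT against TS at S2 and S1 to S2 in TS, 1 for RG against TS at S2 and IT against TS at S1, 2 for the RG minus TS step from S3 to S4, 3 for IT against TS at S3 and S3 to S4 in TS, 4 for RG against TS at S1 and RG against TS at S4, 5 for S3 to S4 in RG, 8 for IT against TS at S4, 9 for S3 to S4 in IT. Without slides 7 and 8, the count was 0 for S1 to S2 in TS, 1 for the RG minus TS step from S2 to S3, 2 for RG against TS at S1, 3 for S1 to S2 in IT and S2 to S3 in TS, 5 for S2 to S3 in IT, 7 for RG against TS at S2, 9 for IT against TS at S2, 12 for IT against TS at S1. By the methods' t-test after Benjamini-Hochberg adjustment, the count was 0 for RG against TS at S1, RG against TS at S2, RG against TS at S4, IT against TS at S1, IT against TS at S2, S2 to S3 in RG, S2 to S3 in IT and S1 to S2 in TS, 1 for S3 to S4 in TS, 3 for IT against TS at S4, 4 for IT against TS at S3 and S3 to S4 in RG, 5 for S3 to S4 in IT. By the methods' t-test without adjustment, the count was 1 for IT against TS at S1 and S2 to S3 in TS, 3 for S1 to S2 in IT, 4 for IT against TS at S3, 5 for RG against TS at S3, 6 for RG against TS at S2, 9 for IT against TS at S4, 15 for S3 to S4 in IT. With quantile normalization, the count was 1 for RG against TS at S2 and S2 to S3 in TS, 2 for IT against TS at S2, 3 for the RG minus TS step from S3 to S4, 6 for S1 to S2 in IT, 7 for S2 to S3 in IT. With scaling to the percentile of bright probes alone, the count was 0 for S1 to S2 in TS, 1 for RG against TS at S2, 5 for IT against TS at S3, 6 for S2 to S3 in IT. With slide as a random block, the count was 2 for S2 to S3 in TS and the RG minus TS step from S2 to S3, 3 for S1 to S2 in IT, 4 for RG against TS at S2, 5 for IT against TS at S2, 7 for IT against TS at S1, 9 for S2 to S3 in IT. With scan session as a random block, the count was 1 for S2 to S3 in TS and the RG minus TS step from S2 to S3, 2 for S1 to S2 in IT, 4 for RG against TS at S2 and IT against TS at S2, 6 for S2 to S3 in IT, 8 for IT against TS at S1. With the replicate number as a block, the count was 2 for S2 to S3 in TS, 4 for IT against TS at S2. Leaving out 1 array at a time gave 5 to 10 for RG against TS at S1, 0 to 4 for RG against TS at S2, 2 to 4 for RG against TS at S3, 7 to 12 for RG against TS at S4, 1 to 5 for IT against TS at S1, 0 to 6 for IT against TS at S2, 3 to 9 for IT against TS at S3, 15 to 20 for IT against TS at S4, 0 to 0 for S1 to S2 in RG, 1 to 2 for S2 to S3 in RG, 10 to 12 for S3 to S4 in RG, 0 to 2 for S1 to S2 in IT, 1 to 10 for S2 to S3 in IT, 17 to 21 for S3 to S4 in IT, 0 to 2 for S1 to S2 in TS, 0 to 2 for S2 to S3 in TS, 7 to 9 for S3 to S4 in TS, 0 to 0 for the RG minus TS step from S1 to S2, 0 to 0 for the RG minus TS step from S2 to S3, 4 to 6 for the RG minus TS step from S3 to S4. Arrays that moved a count by over 1.5 times when left out were these. For RG against TS at S1 the count was 5 without RG S1 replicate 1 or TS S1 replicate 3. For RG against TS at S2 the count was 0 without RG S2 replicate 1 or RG S2 replicate 2 or TS S2 replicate 1, 1 without TS S2 replicate 2 or TS S2 replicate 3, 4 without RG S2 replicate 3. For IT against TS at S1 the count was 1 without IT S1 replicate 3. For IT against TS at S2 the count was 0 without TS S2 replicate 1 or TS S2 replicate 2, 6 without TS S2 replicate 3. For IT against TS at S3 the count was 3 without IT S3 replicate 3, 5 without TS S3 replicate 1. For S2 to S3 in RG the count was 1 without RG S2 replicate 1 or RG S2 replicate 3 or RG S3 replicate 3. For S1 to S2 in IT the count was 1 without IT S1 replicate 2, 2 without IT S2 replicate 2. For S2 to S3 in IT the count was 1 without IT S2 replicate 1 or IT S2 replicate 3 or IT S3 replicate 1, 6 without IT S2 replicate 2, 10 without IT S3 replicate 3. For S1 to S2 in TS the count was 0 without TS S1 replicate 2 or TS S1 replicate 3 or TS S2 replicate 1 or TS S2 replicate 2, 2 without TS S1 replicate 1. For S2 to S3 in TS the count was 2 without TS S2 replicate 3.

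Over all varieties together, arrays of the same replicate number on different slides deviated from their group means with a mean correlation of 0.0743 (-0.517 to 0.707). Within IT, though, the number went with slide and scan session. Replicate 1 lay on slide 1, replicate 2 on slides 2 and 4 and replicate 3 on slides 3 and 5, each number in 1 session. Arrays on a shared slide had mean correlations of 0.261 and 0.334 for different and equal numbers. With slide as a random block the correlation within slides was 0.422, whereas the reported fit treated arrays as independent. The replicate block changed no other count by over 1.5 times. The median of all probes over the comparisons lay between -0.205 and 0.303 as reported, -0.912 and 0.874 without scaling, -0.154 and 0.205 with quantile normalization, -0.391 and 0.48 with normexp and -0.282 and 0.394 with the other percentile. Of all 124 member calls, 15 kept direction and call in every alternative, 106 lost the call in at least 1 and 3 turned in at least 1. For the genes chosen by rule, which had the largest called differences, 354 of 414 alternatives kept direction and call, 60 kept the direction only and 0 turned. Among all 124 member calls, normexp turned BCS1 in IT against TS at S3 to -0.35, VIT_01s0011g06590 from S3 to S4 in IT to 0.38 and HSP26a (VIT_16s0098g01060) from S3 to S4 in TS to 0.06, each for dim probes, and the cause was not tested. Signal over background limits those probes, and 3 arrays a group limit the rest.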
